A study of Mus musculus with 4 samples.

Results

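The 9 genes studied here mark megakaryocytes and platelets, were chosen by name as a list, and were followed across 4 RNA-seq libraries: the chemokines Pf4 and Ppbp, the fibrinogen receptor subunits Itga2b and Itgb3, the GPIb-IX receptor subunits Gp1ba, Gp1bb and Gp9, the adhesive ligand Vwf and the granule membrane receptor Treml1. All 9 of 9 were found among the 43629 gene identifiers of the count tables, of which 33068 have a name in the annotation. Read counts were compared between Chaf1b-deleted and control hematopoietic stem and progenitor cells (HSPCs). Chaf1b encodes a subunit of CAF-1, which deposits histones on newly copied DNA, and the comparison asks how the expression of lineage genes changes when it is lost.

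The cells were CD117+ HSPCs of C57Bl/6 mice, euthanized at 8 to 12 weeks of age per the study's methods, and both groups came from mice homozygous for floxed Chaf1b. The control group (n = 2 libraries) is labelled Chaf1b (fl/fl) and received the empty retroviral vector MIGR1, and the Chaf1b-deleted group (n = 2 libraries) is labelled Chaf1b (-/-) and received MIGR1-Cre. Both groups were grown with SCF, IL-6, IL-3 and LDL, sorted for eGFP from the vector, and taken 48 h after spinfection. The control vector carried no Cre, so the presence of Cre and the loss of Chaf1b cannot be told apart.

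Megakaryocytes arise from hematopoietic stem and progenitor cells, become polyploid, and release platelets from their cytoplasm. Platelets adhere to von Willebrand factor through the GPIb-IX receptor, bind fibrinogen through the integrin formed by the Itga2b and Itgb3 products, and secrete granules that hold the chemokines encoded by Pf4 and Ppbp. Transcription factors of the GATA, ETS, RUNX and NF-E2 families drive this gene program.

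Promoters of 7 of the 9 genes, all but Itgb3 and Vwf, were taken from RefSeq (GRCm38.p6, from 250 bases before to 50 after the gene start). Each was searched on both strands for a motif of each family. For GATA factors the letters were AGATAA. For ETS factors, such as the Fli1 product, they were AGGAAG. The RUNX motif was written TGTGGT. For NF-E2, whose site is shared with AP-1, the letters TGAGTCA were used, and no matches overlapped one another. The ETS letters occurred in 5 of the 7 promoters (Pf4, Itga2b, Gp1ba, Gp1bb and Gp9) and in 35.4% of all 32851 promoters given there. The GATA letters occurred in 1 of the 7 (Pf4) and in 11.2% of all promoters, the RUNX letters in 1 of the 7 (Gp9) and in 16.8%, and the NF-E2 letters in 0 of the 7 and in 5.20%. Below are 5 of these promoters, because they cover genes of each kind found in the counts. Both deleted libraries lay above both controls for Pf4, Ppbp, Itga2b and Gp9. The lower deleted library was at 1.73, 2.08, 1.25 and 1.03 times the higher control for these genes in turn. The deleted libraries of Gp1ba lay on both sides of the controls. The Pf4 sequence lies at chr5:90772185-90772484 (plus strand), Ppbp at chr5:90768268-90768567 (plus strand), Itga2b at chr11:102469834-102470133 (minus strand), Gp1ba at chr11:70638872-70639171 (plus strand) and Gp9 at chr6:87777820-87778119 (plus strand), and each is written from 5′ to 3′ along its gene. Capitals mark the matches, so that an ETS match on the other strand reads CTTCCT. The RUNX match of Gp9 is on the other strand too, where it reads ACCACA.
Pf4: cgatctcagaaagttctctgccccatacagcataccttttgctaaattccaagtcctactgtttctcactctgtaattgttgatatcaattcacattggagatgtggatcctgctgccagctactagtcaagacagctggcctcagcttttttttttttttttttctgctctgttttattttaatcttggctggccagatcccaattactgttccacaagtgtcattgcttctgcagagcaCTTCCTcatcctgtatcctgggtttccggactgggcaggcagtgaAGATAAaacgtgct
Ppbp: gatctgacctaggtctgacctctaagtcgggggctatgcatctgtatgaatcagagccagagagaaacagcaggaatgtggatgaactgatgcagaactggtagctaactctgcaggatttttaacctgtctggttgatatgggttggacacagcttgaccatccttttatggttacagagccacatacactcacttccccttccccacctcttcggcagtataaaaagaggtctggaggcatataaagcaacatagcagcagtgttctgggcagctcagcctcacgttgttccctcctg
Itga2b: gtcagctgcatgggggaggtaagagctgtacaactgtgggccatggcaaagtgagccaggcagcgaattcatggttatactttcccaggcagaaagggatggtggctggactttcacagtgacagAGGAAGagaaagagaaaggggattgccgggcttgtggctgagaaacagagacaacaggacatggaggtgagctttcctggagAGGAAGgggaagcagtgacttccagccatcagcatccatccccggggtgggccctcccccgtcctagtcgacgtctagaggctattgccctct
Gp1ba: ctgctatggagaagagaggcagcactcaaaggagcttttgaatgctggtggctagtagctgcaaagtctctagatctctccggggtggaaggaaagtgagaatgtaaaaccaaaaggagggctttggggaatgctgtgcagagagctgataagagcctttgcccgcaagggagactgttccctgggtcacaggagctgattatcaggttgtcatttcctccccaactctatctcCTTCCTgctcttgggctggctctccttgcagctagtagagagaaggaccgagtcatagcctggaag
Gp9: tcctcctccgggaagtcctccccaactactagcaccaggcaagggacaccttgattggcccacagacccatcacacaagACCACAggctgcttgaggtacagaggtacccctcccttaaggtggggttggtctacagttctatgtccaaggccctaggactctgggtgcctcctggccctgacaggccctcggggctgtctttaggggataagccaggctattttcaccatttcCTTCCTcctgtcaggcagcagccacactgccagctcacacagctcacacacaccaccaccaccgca

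Among the promoters shown, Pf4 carries both an ETS and a GATA match. Ppbp, its neighbour on the chromosome, carries no match to the exact letters of any of the 4 motifs. Other forms of these motifs were not searched, so unmarked stretches may still hold sites of these families.

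Reads counted on genes numbered 18468637 to 25409926 per library, so that 3 counts correspond to 0.118 to 0.162 counts scaled to the library total on genes (CPM). Chaf1b itself had 1825 and 1471 counts in control HSPCs and 378 and 330 after deletion, with a log2 fold change of -2.01 (SE, the standard error, 0.25; adjusted p = 0.0330 by edgeR's quasi-likelihood (QL) test, adjusted after Benjamini-Hochberg over all genes tested, and 0.0592 with the replicate number as a block or 0.0651 with at least 10 counts in every library, which end the call), whereas for Chaf1a, which encodes another CAF-1 subunit, the log2 fold change was -0.43 (adjusted p = 0.569, same test). Kit, which encodes the CD117 used for isolation, was present at 95.6 to 124 CPM in all 4 libraries. Chaf1b-deleted replicate 1 stood apart from the other 3 libraries. In it, 10 interferon-stimulated genes summed to 1386 CPM against 130 to 163 CPM in the others. It also had 7905 Xist counts against 23 to 33, and 4 Y-linked genes had 0 to 2 counts each in it against 837 to 2846 in the others. Xist and the Y-linked genes differ between female and male cells, so sex differs between the deleted libraries and is part of the comparison of the groups. Its part in the results was not tested, and values without this library are given beside the main results.

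The 9 genes split into those that lay higher in both Chaf1b-deleted libraries and those that overlapped with the controls. Pf4, Ppbp, Vwf, Itga2b and Itgb3 were 1.46 to 3.16 times higher by the fitted fold change, Gp9 was 1.30 times higher, and Gp1ba, Gp1bb and Treml1 were at 0.913 to 1.11 times the control level. None of the 9 passed the threshold of 1.5-fold and an adjusted p under 0.05 in edgeR's quasi-likelihood test, which called 0.37% of the 16500 genes tested higher and 0.00606% lower. Before adjustment, p was under 0.05 for 5 of the 9, all higher, against 9.15% of all genes tested. Both deleted libraries lay above both controls for 6 of the 9 genes, against 21.4% of all genes tested, and below both controls for 0 of the 9, against 22.9%. The median log2 fold change was 0.54 for the 9 genes and -0.03 for all genes tested, and that of the 9 genes was 0.69 without Chaf1b-deleted replicate 1 and 0.39 without Chaf1b-deleted replicate 2. The 9 genes and the lists below were chosen with earlier results of these data known, so these shares describe the genes and do not test them as a set. All 9 had passed the filter on low counts. In bulk RNA, a different number of cells of one type and a different amount of RNA per cell cannot be told apart.

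**Figure D1:**
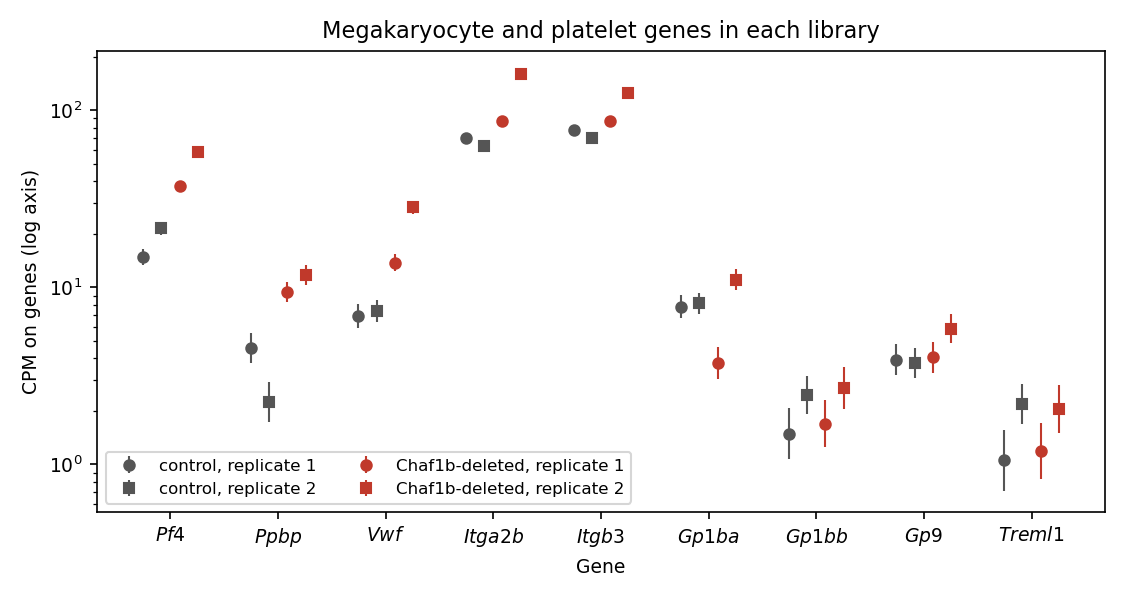
CPM on genes (log axis) of the 9 genes in each library, with 95% Wilson intervals that cover counting error only. Grey points are control and red points Chaf1b-deleted libraries, circles are replicate 1 and squares replicate 2. The red points of Pf4, Ppbp and Vwf sit above the grey ones by at least 1.73 times, and those of Gp1ba lie on both sides of them.

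Pf4 encodes platelet factor 4, a chemokine of the alpha granules. The controls held 339 and 548 counts and the deleted libraries 878 and 1080, or 14.9 and 21.6 against 37.3 and 58.5 CPM. The groups did not overlap, and the lower deleted library was at 1.73 times the higher control. The means were 18.2 ± 4.71 CPM in control and 47.9 ± 15 CPM in Chaf1b-deleted HSPCs (SD, n = 2 each). This gave a log2 fold change of 1.40 (SE 0.27, 95% interval 0.77 to 2.03, adjusted p = 0.0986, edgeR's QL test, Benjamini-Hochberg). Among the 9 genes this was the lowest adjusted p.

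Ppbp encodes pro-platelet basic protein, the precursor of other alpha granule chemokines. Its counts were 103 and 57 in control and 222 and 217 in Chaf1b-deleted HSPCs, or 4.53 and 2.24 against 9.43 and 11.8 CPM. Both deleted libraries were at 2.08 times the higher control or more, the widest gap among the 9 genes, while the controls themselves differed 2.02 times. The log2 fold change was 1.66 (SE 0.43, 95% interval 0.67 to 2.65, adjusted p = 0.173, edgeR's QL test, Benjamini-Hochberg), the largest of the 9. Within a library, the ratio of Pf4 to Ppbp counts was 3.29 and 9.61 in the controls and 3.96 and 4.98 in the deleted libraries, so that the ratios of the groups overlapped.

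Pf4 (chromosome 5, 91201461 to 91202407 in NCBIM37, the Ensembl name of mm9) and Ppbp (91197544 to 91199086) start 3.92 kb apart on the plus strand, in a cluster of chemokine genes of the CXC family. The other CXC genes of this cluster, and Rassf6 before it, were also higher in both deleted libraries, but Mthfd2l after it was not. Cxcl3, whose start lies 13.7 kb beyond that of Pf4 and whose product attracts neutrophils, had 5 and 56 counts in control and 889 and 460 in Chaf1b-deleted HSPCs, a log2 fold change of 4.72 (SE 0.79, adjusted p = 0.0694, edgeR's QL test, Benjamini-Hochberg). Cxcl2, 131 kb beyond Pf4 and also a neutrophil attractant, had 31 and 145 against 1306 and 336 counts (log2 fold change 3.46, adjusted p = 0.124, same test).

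On the other side of Ppbp, Cxcl5 had 5 and 0 counts in control and 12 and 14 in Chaf1b-deleted HSPCs, and Rassf6, which starts 132 kb before Pf4 and encodes a Ras association domain protein, had 54 and 46 against 139 and 142 (log2 fold change 1.71, adjusted p = 0.142, edgeR's QL test, Benjamini-Hochberg). Cxcl15 and Cxcl1 had at most 25 counts in any library and did not pass the filter. None of the neighbours was called by the quasi-likelihood test. Cxcl5, Cxcl3, Cxcl2 and Rassf6 had an unadjusted p under 0.05, all higher, against 9.15% of all genes tested. Mthfd2l, the other neighbour tested in this window, did not. edgeR's exact test called Cxcl3 (adjusted p = 1.33e-05), Cxcl2 (0.00104) and Rassf6 (0.0221) higher but not Cxcl5 or Mthfd2l, against 3.25% of all genes tested. DESeq2 called Cxcl3 (adjusted p = 0.022) and Rassf6 (0.0088) higher but not Cxcl2 (0.086), and gave Cxcl5 no adjusted p. It called 3.17% of the genes that it gave an adjusted p higher. The next gene in this window, Mthfd2l, which encodes a mitochondrial enzyme of folate metabolism and starts 159 kb beyond Pf4, had a log2 fold change of 0.01 (95% interval -1.0 to 1.03). Without Chaf1b-deleted replicate 1 the log2 fold change of Cxcl3 was 4.26, that of Cxcl2 2.28 and that of Rassf6 1.79, and without replicate 2 they were 5.07, 4.10 and 1.64. Cxcl3 and Cxcl2 were higher in Chaf1b-deleted replicate 1 than in replicate 2, whereas the CPM of Pf4 and Ppbp were higher in replicate 2.

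**Figure D2:**
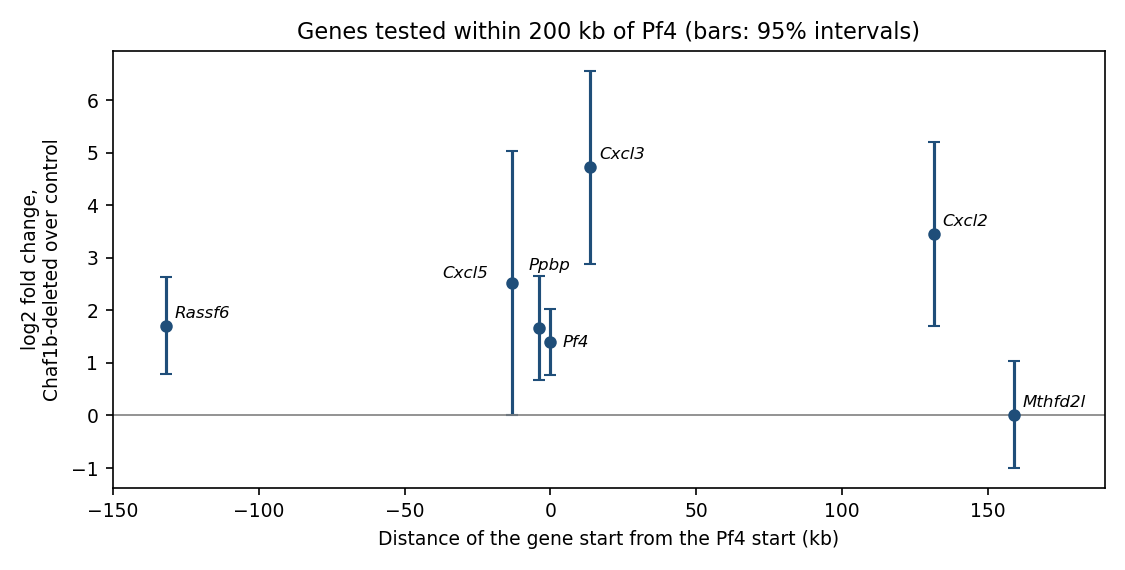
Fitted log2 fold change (Chaf1b-deleted over control) of each tested gene around Pf4, against the distance of its start from the Pf4 start in kb. Points are estimates from 2 libraries per group and bars their 95% intervals. Pf4 and Ppbp, 3.92 kb apart, sit at 1.40 and 1.66, Cxcl3 at 4.72 and Mthfd2l at 0.01.

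The fibrinogen receptor is an integrin of which Itga2b encodes the alpha subunit (CD41) and Itgb3 the beta subunit (CD61). Itga2b (chromosome 11, 102314611 to 102331436, minus strand) had 1583 and 1589 counts in control and 2044 and 2945 in Chaf1b-deleted HSPCs, or 69.6 and 62.5 against 86.8 and 159 CPM. The groups did not overlap, but the deleted libraries differed 1.84 times from each other. Its fitted log2 fold change was 0.90 (SE 0.26, 95% interval 0.28 to 1.51, adjusted p = 0.224, edgeR's QL test, Benjamini-Hochberg).

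Itgb3 (chromosome 11, 104469370 to 104531790, plus strand), whose product also pairs with the alpha v integrin in other cells, had 1770 and 1770 counts in the controls and 2060 and 2328 in the deleted libraries, or 77.9 and 69.7 against 87.5 and 126 CPM. Again both deleted libraries were above both controls, with the lower one at 1.12 times the higher control. The log2 fold change was 0.54 (SE 0.22, 95% interval 0.04 to 1.04, adjusted p = 0.359, edgeR's QL test, Benjamini-Hochberg), below the 1.5-fold threshold in size. The ratio of Itga2b to Itgb3 counts was 0.894 and 0.898 in control and 0.992 and 1.27 in Chaf1b-deleted libraries, so it was higher in both deleted libraries.

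Vwf encodes von Willebrand factor, which megakaryocytes and endothelial cells make and store. The gene (chromosome 6, 125496792 to 125636697) had 156 and 188 counts in control and 324 and 525 in Chaf1b-deleted HSPCs, or 6.86 and 7.40 against 13.8 and 28.4 CPM. The groups did not overlap, the controls lay within 1.08 times of each other, and the deleted libraries differed 2.06 times. For Vwf the log2 fold change was 1.56 (SE 0.35, 95% interval 0.75 to 2.36, adjusted p = 0.130, edgeR's QL test, Benjamini-Hochberg). Without Chaf1b-deleted replicate 2 it was 1.09, and without replicate 1 it was 1.91.

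The 3 genes of the GPIb-IX receptor, through which platelets bind von Willebrand factor, had fitted log2 fold changes of -0.13 to 0.38, and their difference from the other genes was not tested. Gp1ba (chromosome 11, 70452624 to 70456328), which encodes the ligand-binding subunit, had 177 and 207 counts in control and 88 and 204 in Chaf1b-deleted HSPCs, or 7.79 and 8.15 against 3.74 and 11.1 CPM. Chaf1b-deleted replicate 1 was the lowest and replicate 2 the highest of the 4 libraries, with a 2.96-fold difference between them. The log2 fold change was -0.13 (95% interval -1.21 to 0.95, adjusted p = 0.941, edgeR's QL test, Benjamini-Hochberg). It was -0.95 without Chaf1b-deleted replicate 2 and 0.39 without replicate 1, so its sign depended on which deleted library was used.

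Gp9 (chromosome 6, 87728130 to 87729756), the subunit needed for the complex to reach the surface, had 89 and 95 counts in control and 95 and 108 in Chaf1b-deleted HSPCs, or 3.91 and 3.74 against 4.04 and 5.85 CPM. Both deleted libraries were above both controls, the lower one by 1.03 times. The fit gave a log2 fold change of 0.38 (95% interval -0.51 to 1.26, adjusted p = 0.758, edgeR's QL test, Benjamini-Hochberg).

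Gp1bb (chromosome 16, 18620412 to 18622496, minus strand), the subunit linked to the Gp1ba product, had 34 and 63 counts in control and 40 and 50 in Chaf1b-deleted HSPCs, or 1.5 and 2.48 against 1.70 and 2.71 CPM. The groups overlapped (log2 fold change 0.15, 95% interval -0.99 to 1.30, adjusted p = 0.937, edgeR's QL test, Benjamini-Hochberg). Its value is uncertain, because 593 bp or 31.5% of its exons are shared with exons of Sept5 on the same strand. Sept5, which encodes a septin, had 2088 to 3241 counts in the 4 libraries (log2 fold change 0.08). For the other 8 genes, no exon base was shared with another annotated gene.

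Treml1 (chromosome 17, 48499241 to 48506499), which encodes a receptor of the alpha granule membrane that reaches the surface of activated platelets, had the lowest counts, 24 and 56 in control and 28 and 38 in Chaf1b-deleted HSPCs. These are 1.06 and 2.20 against 1.19 and 2.06 CPM, and each group held a library near the lower and one near the upper value. The log2 fold change was -0.01 (95% interval -1.30 to 1.28, adjusted p = 0.998, edgeR's QL test, Benjamini-Hochberg), and the interval includes 0.90, the value of Itga2b. The controls differed 2.09 times, and their counting intervals (0.709 to 1.57 and 1.70 to 2.86 CPM) did not overlap.

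**Figure D3:**
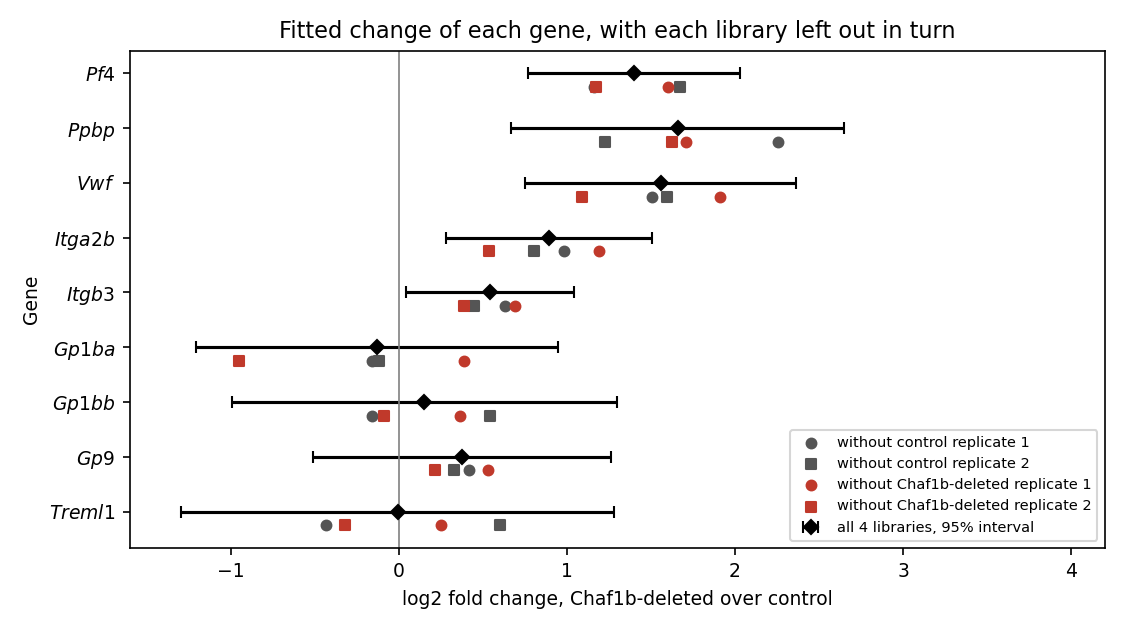
Fitted log2 fold change of the 9 genes (Chaf1b-deleted over control). Diamonds and bars are estimates and 95% intervals from all 4 libraries, and the other points the estimate with 1 library left out. The points of Pf4, Ppbp, Vwf, Itga2b and Itgb3 stay above 0, from 0.39 for Itgb3 to 2.26 for Ppbp, and those of Gp1ba span -0.95 to 0.39.

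Ratios of counts within a library do not depend on how the libraries were scaled. They restate the counts above and add no separate evidence. The ratio of Pf4 to Gp9 counts was 3.81 and 5.77 in the controls and 9.24 and 10.0 in the deleted libraries. The ratio of Vwf to Gp9 was 1.75 and 1.98 against 3.41 and 4.86, and that of Itga2b to Gp1ba 8.94 and 7.68 against 23.2 and 14.4. In each of these 3 ratios both deleted libraries were above both controls. By role, the 2 chemokine genes supplied 10.3% and 13.2% of all counts on the 9 genes in the controls and 19.0% and 17.3% in the deleted libraries, whereas the 3 GPIb-IX genes supplied 7.02% and 7.98% against 3.86% and 4.83%. The fibrinogen receptor pair held the largest share, 73.5% to 78.4% in control and 70.4% to 71.0% in Chaf1b-deleted HSPCs.

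Per exon length, as CPM per kilobase of exon (RPKM), Pf4 had the highest mean level over the 4 libraries (56.4), followed by Itga2b (17.4), Itgb3 (15.4), Ppbp (6.47), Gp9 (5.41), Gp1ba (2.19), Treml1 (1.30), Gp1bb (1.11) and Vwf (0.879). The order differed between the groups, since by group means Itgb3 (12.6) was above Itga2b (12.1) and Gp9 (4.72) above Ppbp (3.14) in control, against 18.3 and 22.6, and 6.09 and 9.81, in Chaf1b-deleted HSPCs, and Vwf went from 0.444, the lowest, to 1.31, above Treml1 (1.30) and Gp1bb (1.17). Neighbours in the pooled order overlapped in their ranges over the libraries, except that all 4 values of Itgb3 (11.9 to 21.6 RPKM) were above those of Ppbp (2.08 to 10.9) and all values of Gp9 (4.61 to 7.21) above those of Gp1ba (1.07 to 3.15). Within every library Pf4 was above Itga2b, although their ranges over the libraries (25.4 to 99.8 and 11.5 to 29.2 RPKM) overlapped. All 9 genes together summed to 188 and 180 CPM in control and 246 and 406 CPM in Chaf1b-deleted HSPCs. On the CPM scale, Chaf1b-deleted replicate 2 was the highest library for 8 of the 9 genes, and the exception was Treml1. This library also had the largest share of reads outside genes, 48.3%. The share was 35.8% in Chaf1b-deleted replicate 1 and 42.1% to 42.3% in control. Its part in these levels was not tested.

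Which of the genes are called depended on the test. edgeR's exact test called Pf4 (adjusted p = 0.00225), Vwf (0.0112) and Ppbp (0.0344) higher, with Benjamini-Hochberg adjustment over 16500 genes, of which it called 3.25% higher. The likelihood ratio test called these 3 genes too, with 3.53% of all genes, and so did DESeq2 with 3.17% of the 14900 genes that it gave an adjusted p. Without a low-count filter the quasi-likelihood test called these 3 and Itga2b, with 2.57% of all genes. None of these called any of the 9 lower.

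With 1 library left out, the lone library of a group is assumed to vary like the other group. Without control replicate 1, Ppbp was called higher, with 1.6% of all genes. Without control replicate 2, Pf4 and Vwf were, with 1.92%. Without Chaf1b-deleted replicate 1, the library with high interferon-stimulated genes, Pf4, Vwf and Itga2b were called, with 0.721% of all genes. Without Chaf1b-deleted replicate 2, none of the 9 was, with 1.89% of all genes called. Without Chaf1b-deleted replicate 1 the log2 fold change was 1.60 for Pf4, 1.71 for Ppbp, 1.19 for Itga2b and 0.69 for Itgb3, and without replicate 2 it was 1.17, 1.62, 0.54 and 0.39. All 4 were thus above 0 with either deleted library alone, and Itga2b moved by over 1.5 times between them. Itgb3, Gp9, Gp1ba, Gp1bb and Treml1 were called under none of these settings.

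A wider list of 56 other megakaryocyte and platelet genes places the 9 genes among those of related function. Of these, 55 were in the tables and 53 were tested, with a median log2 fold change of 0.18 against -0.03 for all genes tested, and of 0.22 without Chaf1b-deleted replicate 1 and 0.28 without replicate 2. Both deleted libraries were above both controls for 20 of the 53 (21.4% of all genes tested) and below both for 2 (22.9%). None was called by the quasi-likelihood test, and 10 had an unadjusted p under 0.05, all higher (9.15% of all genes tested). edgeR's exact test called 3 of the 53 higher, Tbxa2r, F2rl2 and Plek, against 3.25% of all genes tested. Plek was named after its values were seen.

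Of the receptors, 12 of 14 tested were above 0 (47.5% of all genes tested), with a median log2 fold change of 0.59. Tbxa2r, the thromboxane A2 receptor, had 10 and 18 counts in control and 101 and 86 in Chaf1b-deleted HSPCs, the largest fitted increase of the wider list (log2 fold change 2.97, standard error 0.50, adjusted p = 0.0694, edgeR's QL test, Benjamini-Hochberg). F2rl2, a thrombin receptor, was at 13.3 and 13.8 against 29.4 and 29.5 CPM (log2 fold change 1.15, adjusted p = 0.11, same test). Without Chaf1b-deleted replicate 1 the log2 fold change was 2.92 for Tbxa2r and 1.04 for F2rl2. Esam, an adhesion molecule shared with endothelial cells and stem cells, had 13 and 15 against 25 and 38 counts.

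Gp5, the remaining subunit of the GPIb complex, had 221 and 183 against 95 and 152 counts. On the CPM scale the Gp5 groups overlapped, as those of Gp1ba and Gp1bb did (log2 fold change -0.47, adjusted p = 0.703, edgeR's QL test, Benjamini-Hochberg). P2ry12, an ADP receptor, had 20 and 82 against 27 and 23 counts, and Gp6, the collagen receptor, had at most 5 counts in any library and was not tested.

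Granule genes had a median log2 fold change of 0.31 over 12 tested. Selp, which encodes P-selectin, had 35 and 75 counts in control and 99 and 81 in Chaf1b-deleted HSPCs (log2 fold change 0.96, adjusted p = 0.471, edgeR's QL test, Benjamini-Hochberg). F13a1, the coagulation factor XIII A subunit, which monocytes also make, was at 116 and 515 CPM in control and 154 and 111 CPM in Chaf1b-deleted HSPCs, and Srgn, a granule proteoglycan of many blood cells, at 930 and 954 against 833 and 633 CPM. The fitted log2 fold changes of the last 2 were -1.20 and -0.32.

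Genes of the cytoskeleton and of signalling had a median log2 fold change of 0.16 over 14 tested, all 14 above 0 (47.5% of all genes tested). In CPM the groups overlapped for 9 of them, as for 9182 of the 16500 genes tested. Plek, the protein kinase C substrate pleckstrin, was at 223 and 221 CPM in control and 441 and 443 CPM in Chaf1b-deleted HSPCs (log2 fold change 1.02, adjusted p = 0.117, edgeR's QL test, Benjamini-Hochberg). Pcp4l1, a relative of the calmodulin regulator Pcp4, had 15 and 11 against 25 and 26 counts. Tubb1, the beta tubulin of the platelet marginal band, had 8 and 23 against 21 and 15 counts, and its groups overlapped.

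The transcription factors of the lineage had a median log2 fold change of -0.01 over 13 tested, with 6 above 0 (47.5% of all genes tested) and 7 below. Gata1, which drives megakaryocyte and erythroid genes, was at 32.2 and 22 CPM in control and 16.6 and 25.1 CPM in Chaf1b-deleted HSPCs. Its cofactor gene Zfpm1 was at 46.8 and 29.1 against 43.8 and 75.8 CPM, and both pairs of groups overlapped. Nfe2, needed for platelet release, had a log2 fold change of 0.07, the ETS factor gene Fli1 -0.20 and the repressor gene Gfi1b -0.14, none of them past the threshold (edgeR's QL test, Benjamini-Hochberg). The difference between the transcription factors and the other groups was not tested.

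**Figure D4:**
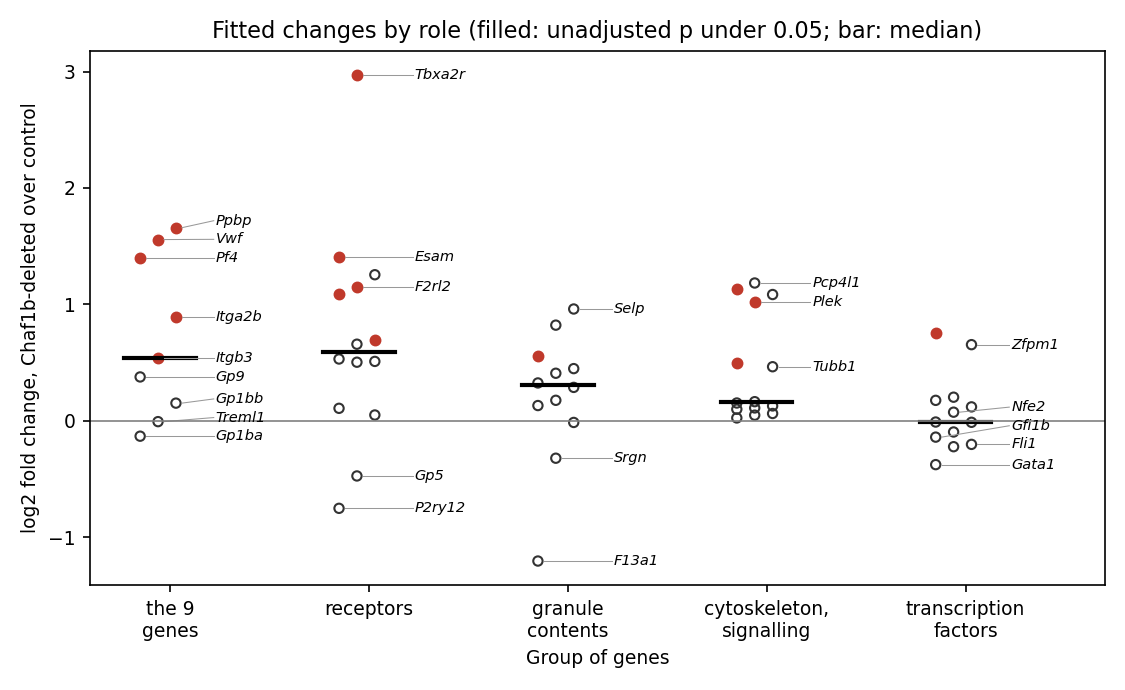
Fitted log2 fold change (Chaf1b-deleted over control) of the 9 genes and of the tested genes of the wider list by role. Each point is a gene, filled points have an unadjusted p under 0.05, and bars are medians. The medians run from 0.59 for receptors to -0.01 for transcription factors, and the 9 genes sit at 0.54.

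Lists of markers of other cells that a CD117+ culture could hold were counted in the same libraries. Of 10 macrophage markers, 8 were above 0 (47.5% of all genes tested). Both deleted libraries lay above both controls for 6 of these markers (21.4% of all genes tested). Their median log2 fold change was 0.62 (0.29 without Chaf1b-deleted replicate 1 and 0.85 without replicate 2). Their summed level was 1103 and 1892 CPM in control and 2197 and 1681 CPM in Chaf1b-deleted HSPCs, so the groups overlapped, and none was at 0. The highest of them, Itgam, was at 706 to 975 CPM in control and 989 to 1317 CPM in Chaf1b-deleted HSPCs. Macrophages can also express Pf4, and the part of these cells in its difference was not tested.

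Of 10 endothelial markers, 6 were tested and 5 of these were above 0 (47.5% of all genes tested). The median log2 fold change of the 6 was 0.90 (1.13 without Chaf1b-deleted replicate 1 and 0.63 without replicate 2). Both deleted libraries lay above both controls for 5 of the 6 (21.4% of all genes tested) and below both for 0 (22.9%). The 10 summed to 258 and 284 CPM in control and 307 and 302 CPM in Chaf1b-deleted HSPCs, most of which was Pecam1, a gene also expressed by blood cells, at 216 to 267 CPM. The defining marker Cdh5 had 4 and 2 counts in control and 12 and 19 in Chaf1b-deleted HSPCs, Cldn5 had 0 to 4 and Sox17 0 or 1. Kdr, a receptor for vascular endothelial growth factor, had 18 and 16 against 97 and 42 counts (log2 fold change 2.22, adjusted p = 0.168, edgeR's QL test, Benjamini-Hochberg), and edgeR's exact test called it higher (adjusted p = 0.0222). Tie1 had 114 and 121 against 157 and 197 counts, Tek 47 and 32 against 56 and 76, and Robo4 3 and 1 against 10 and 11. Apart from Pecam1, the endothelial genes given here fall outside the naming rule and were picked with their values known. Emcn had 2 to 7 counts, and Egfl7, with a log2 fold change of -0.34, was the tested marker below 0. The part of endothelial cells in the difference of Vwf was not tested.

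Of the 13 erythroid markers tested, 8 were below 0 (8666 of all 16500 genes tested) and the median log2 fold change was -0.51. Both deleted libraries lay above both controls for 2 of them (21.4% of all genes tested) and below both for 2 (22.9%). The erythroid list summed to 1066 and 859 CPM in control and 578 and 751 CPM in Chaf1b-deleted HSPCs. The highest of them, Tfrc, the transferrin receptor, was at 730 and 708 against 416 and 459 CPM. It made up most of the sum in every library, so the difference of the sum largely follows this gene. Without Chaf1b-deleted replicate 1 the median was -0.07, and without replicate 2 it was -0.92, so the size of the erythroid difference depended on the deleted library used. Mast cell and basophil markers had a median of 0.46 over 9 tested (0.20 without Chaf1b-deleted replicate 1 and 0.41 without replicate 2). Their summed levels were 817 to 1269 CPM in control and 1127 to 1132 CPM in Chaf1b-deleted HSPCs, and the highest of them was Cpa3 at 129 to 363 CPM. Stem and progenitor markers had a median of 0.26 over 10 (0.55 without Chaf1b-deleted replicate 1 and 0.09 without replicate 2), with Ptprc the highest at 656 to 905 CPM. The cytokine receptor gene Flt3 rose, from 106 and 135 counts in control to 454 and 419 in Chaf1b-deleted HSPCs (log2 fold change 2.09, standard error 0.28, adjusted p = 0.0383, edgeR's QL test, Benjamini-Hochberg), and was the only gene called among the 48 tested markers of other cells. Its log2 fold change was 2.10 without Chaf1b-deleted replicate 1 and 2.09 without replicate 2. The call was lost with DESeq2's size factors, with library size only, where each library had to reach 10 counts, with the replicate number as a block, and at 2-fold with an adjusted p under 0.01.

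**Figure D5:**
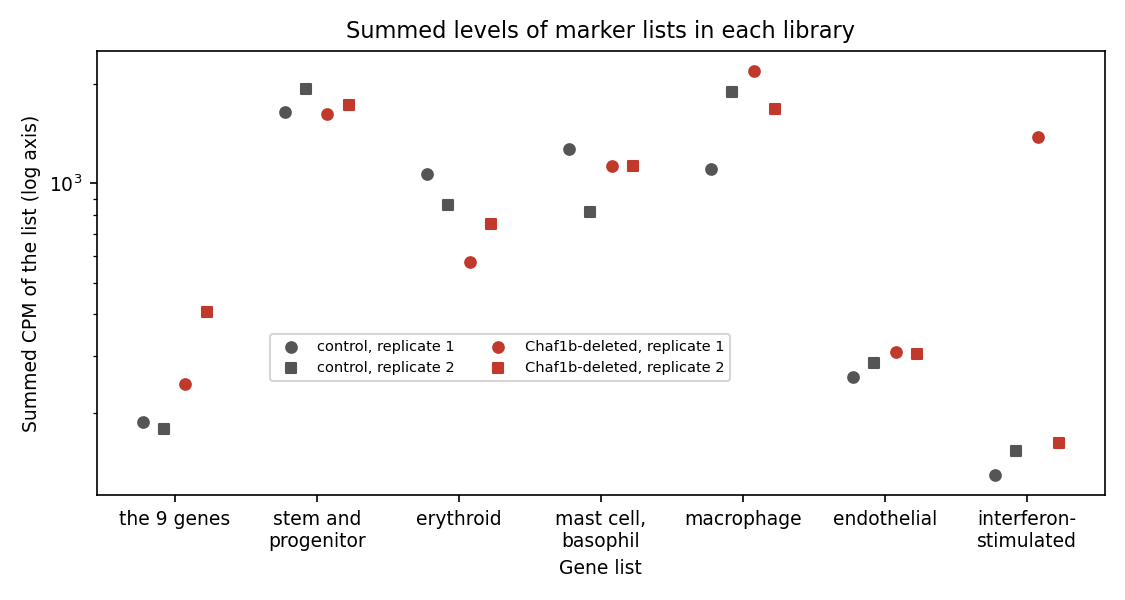
Summed CPM (log axis) of the 9 genes and of marker lists in each library. Grey points are control and red points Chaf1b-deleted libraries, circles are replicate 1 and squares replicate 2. The 9 genes sum to 180 to 188 CPM in control and to 246 and 406 CPM in Chaf1b-deleted libraries, and the interferon-stimulated genes stand out in Chaf1b-deleted replicate 1 alone, at 1386 CPM.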

How the data were processed

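Total RNA was sequenced from 4 HSPC libraries (2 control, 2 Chaf1b-deleted), grouped by the sample labels. The authors prepared stranded, ribosome-depleted libraries, used STAR for alignment (build mm9) and HTSeq for counting, and deposited raw counts per Ensembl identifier, not normalized or pooled. The annotation release and the strand setting are not given in the sources used here. Reads assigned to no gene made up 35.8% to 48.3% of those, the ambiguous reads and the gene counts together. The lowest share was that of Chaf1b-deleted replicate 1 and the highest that of Chaf1b-deleted replicate 2, with 42.1% to 42.3% in control. Reads on no gene and ambiguous reads were left out. Identifiers were named from the NCBIM37 annotation and RefSeq synonyms (Adgre1 is Emr1 there).

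CPM are counts scaled to the total on genes, and RPKM also to exon length. Differential expression was computed over all genes with edgeR 4.0.16 (R 4.3.3, limma 3.58.1) by filterByExpr with a minimum count of 10, TMM factors (0.925 to 1.06), glmQLFit and glmQLFTest without covariates, two-sided, with Benjamini-Hochberg adjustment over 16500 genes. Genes were called at 1.5-fold and an adjusted p under 0.05. The common dispersion was 0.0763. The scripts were tested on simulated counts. Alternatives were other normalizations and filters, edgeR's exact and likelihood ratio tests, DESeq2 1.42.0, the replicate number as a block, stricter thresholds, and each library left out. The newer quasi-likelihood method of edgeR was chosen after seeing the data.

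The members and lists were chosen with earlier results of these data known. Named were Chaf1b, Chaf1a, the 9 genes, the called genes and the 5 largest fitted increases and 5 largest decreases of the wider list, Gp5, Gp6, Tubb1, Selp, Gata1, Nfe2, Fli1, Gfi1b and Zfpm1, the genes next to a member or overlapping its exons, and the called and the highest gene of each other list. 1 gene that the rule names is not reported here. Genes outside this rule are Kit, Xist, Plek, Mthfd2l and the endothelial markers other than Pecam1. Replicates of a group differed beyond sampling noise (chi-square per degree of freedom 39.1 in control, 59.7 in Chaf1b-deleted). The labels do not say that they come from separate animals. Sex-linked counts differ between the Chaf1b-deleted libraries, so these do not come from 1 animal, while the controls may differ only technically, and p-values measure the spread between these libraries. Reads had no molecular identifiers, so Wilson intervals and floors cover counting error only.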

Additional observations from a re-analysis of the deposited data

How the results depend on the processing

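The number of the 9 genes called higher was 0 and became 4 without a low-count filter and 3 with DESeq2, edgeR's exact test and its likelihood ratio test, and ranged from 0 to 3 with a library left out. In the wider list, 0 higher became 3 under each of these 4 settings (0 to 2 with a library left out), and 0 lower became 1 without a filter (0 to 1 with a library left out). Among markers of other cells, 1 higher became 0 with DESeq2's size factors, library size only, at least 10 counts in every library, the replicate block, and the threshold of 2-fold with an adjusted p under 0.01. It became 9 without a filter, 6 with DESeq2 and the exact test and 7 with the likelihood ratio test (1 to 6 with a library left out). The 0 lower became 3 without a filter and 1 with these 3 tests (0 to 1 with a library left out). Over the genes with an adjusted p under each setting, 2.57% were called higher without a filter and 3.17% with DESeq2. The shares were 3.25% with the exact test and 3.53% with the likelihood ratio test. The cause of the changes in these counts was not tested. The newer quasi-likelihood method, chosen after seeing the data, called 0 of the 9 genes.

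Chaf1b lost its call with at least 10 counts in every library (log2 fold change -2.0, adjusted p = 0.0651), with the replicate block (-1.99, adjusted p = 0.0592) and under the stricter threshold (-2.01), all with edgeR's quasi-likelihood test and Benjamini-Hochberg adjustment. The sign turned for Gp1ba without Chaf1b-deleted replicate 1 (0.39, range -0.95 to 0.39 with a library left out), for Gp1bb without control replicate 1 (-0.16) and without Chaf1b-deleted replicate 2 (-0.09, range -0.16 to 0.54), and for Treml1, whose value near 0 became 0.015 with the upper quartile, 0.0016 without a filter, 0.050 with the replicate block, 0.60 without control replicate 2 and 0.25 without Chaf1b-deleted replicate 1 (range -0.44 to 0.60). The signs of Pf4, Ppbp, Vwf, Itga2b, Itgb3 and Gp9 held under all 14 alternatives run for them. Same-numbered libraries did not deviate together (r = 0.0114 across genes). Whether the numbers pair the libraries is not stated. The correlation cannot decide it, because the difference between the deleted libraries also holds that of sex and of interferon-stimulated genes. The replicate block called 0 of the 9 genes. The widest intervals were those of Treml1 (SE 0.55), Gp1bb (0.49) and Gp1ba (0.46), and how much of them is counting error was not tested.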
